A study of Mus musculus with 18 samples.

Results

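The genes described here are those of red cells and of cellular iron uptake that the array carried: Slc4a1, Tfrc, Alas2 and the globins Hbb-b1, Hbb-y and Hba-x. A probe was a member where its only annotated symbol was Slc4a1, Tfrc or Alas2, or began with Hba, Hbb or Hbq. This gave 11 of the 16128 probes, from 6 genes, and 6 of the 11 had enough values to be tested. The tested members were Slc4a1 probe 6448, Tfrc probes 13375 and 15413, Hbb-b1 probe 14464 and Hbb-y probes 8426 and 12458. No member probe passed the test in any comparison between conditions or durations. Among the members, the clearest regularity lay in Hbb-y. Its probes 8426 and 12458 had the same sign on 18 of 18 arrays and a Pearson r of 0.94. Probes of other genes were as much like them: r was 0.95 for Prdm15 with 8426 and 0.96 for Dnaja2 with 12458. The tested Tfrc probes had the same sign on 7 of 17 arrays and an r of -0.04. Each of these Hbb-y probes was negative on 14 of 18 arrays, which by itself makes equal signs frequent.

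A maturing red cell takes up iron by binding transferrin to its receptor, the product of Tfrc, and feeds that iron into haem, whose first step in these cells is catalysed by the Alas2 enzyme. Haem is joined to alpha-like and beta-like globin chains to make haemoglobin, and the finished cell carries carbon dioxide as bicarbonate through band 3, the anion exchanger encoded by Slc4a1. Low oxygen is known to raise erythropoietin output from the kidney and with it red cell formation. In the kidney itself a shorter form of Slc4a1 works in acid-secreting intercalated cells of the collecting duct, and globin transcripts can reach a kidney sample in the blood that stays in the organ.

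The samples were kidneys of CD1 mice, an outbred stock, placed in their atmosphere from postnatal day 2. Constant hypoxia held oxygen at 11%, intermittent hypoxia switched it between 11% and 21% every 4 min, and normoxia was the control atmosphere. Exposure lasted 1, 2 or 4 weeks, so age and duration move together, and each of the 9 combinations had 2 arrays, called A and B here. Per the labels, each array set Cy5 cDNA of one male against Cy3 cDNA of one female kept in the same atmosphere, with different animals on the arrays of a group and no swap of the dyes.

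The value of a probe is therefore the log2 ratio between 2 animals of one condition, and a response of equal size in both leaves no mark on it. A unit of 1 on this scale is a 2-fold difference in the ratio. The sources used here do not say which channel is the numerator, so a sign says nothing about male or female. The probe of the Y-linked gene Eif2s3y, which should keep 1 sign throughout, was positive on 11 arrays and negative on 7. It was above 1 on 3 arrays and below -1 on 4. Signs here and below, those of Eif2s3y included, are of ratios centred on the array's median, except where values as deposited are named. Centring can turn a sign: Alas2 on constant hypoxia 1 week A was -0.81 as deposited and 0.27 centred. Whether all arrays share 1 orientation was not tested. Each signed mean, difference, correlation and count of negative values given here therefore holds for the orientation as deposited. The same is true of each SD or range over arrays, each statement on overlap and the outlying array flagged near the end. Whether 2 probes have the same sign on an array does not depend on the orientation. These ratios hold no levels, so kidney markers could not be checked for abundance. In whole kidney, fewer red cells and less RNA per cell cannot be told apart either.

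The constant hypoxia arrays stood apart before any comparison. They had values for 81.8% to 88.8% of probes, against 42.9% to 65.7% on intermittent hypoxia arrays and 41.0% to 67.9% on normoxia arrays. Their medians over the 6518 tested probes, as deposited, ran from -1.12 to -0.17, against -0.12 to 0.01 on intermittent hypoxia arrays and -0.16 to 0.10 on normoxia arrays. Every array was centred on that median. On the values as deposited 6251 of 6518 probes, all 6 tested members included, passed in constant hypoxia minus normoxia. After centring, the effect of constant hypoxia and this footing of the data still cannot be told apart. Constant hypoxia 4 weeks A had the widest spread, with an SD of 0.92 over probes, and the median of its neighbouring probes drifted by 2.83 along the probe numbers, against at most 1.37 on any other array. Intermittent hypoxia 2 weeks B was next, with an SD of 0.69. Tests were two-sided and used limma over all 6518 probes with Benjamini-Hochberg adjusted p-values and a threshold of 0.05.

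The upstream sequences of Hbb-y and Tfrc are given here because these genes carry 7 of the 11 probes. They are the 250 bases before the annotated start, from RefSeq on build GRCm38.p6, read in the direction of the gene. Capitals mark GATAA, the core bound by GATA factors of red cell precursors, CCACCC, a box bound by KLF-type factors, and ACGTG, the core of hypoxia response elements, each on either strand.
Hbb-y, chr7:103853208-103853457, minus strand: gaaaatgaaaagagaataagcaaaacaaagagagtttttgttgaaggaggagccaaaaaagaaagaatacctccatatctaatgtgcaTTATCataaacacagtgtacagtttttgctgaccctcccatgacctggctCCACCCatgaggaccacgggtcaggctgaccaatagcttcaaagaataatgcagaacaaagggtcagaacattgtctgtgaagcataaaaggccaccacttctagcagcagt
Tfrc, chr16:32608872-32609121, plus strand: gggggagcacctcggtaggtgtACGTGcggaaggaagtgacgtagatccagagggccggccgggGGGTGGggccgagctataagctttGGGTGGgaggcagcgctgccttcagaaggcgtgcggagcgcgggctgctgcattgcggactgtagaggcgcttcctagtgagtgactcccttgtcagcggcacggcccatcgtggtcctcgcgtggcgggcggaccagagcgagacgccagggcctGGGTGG

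The Hbb-y window held TTATC, the reverse complement of the GATA core, 162 bases before the start and CCACCC 112 bases before it. The Tfrc window held ACGTG at 228 bases and 3 copies of GGGTGG, the reverse complement of the CACC box. In the same window of 32851 promoters, 22.6% held a GATA core, 28.1% a CACC box and 16.6% ACGTG. The window before another annotated Tfrc start, further upstream, held none of these motifs. It ran from 32608646 to 32608895, so most of the printed Tfrc window lies after that other start. By RefSeq, Slc4a1 and Hba-x lie on chromosome 11, Hbb-b1 and Hbb-y on chromosome 7, Tfrc on chromosome 16 and Alas2 on chromosome X.

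Slc4a1, the band 3 anion exchanger of the red cell membrane, had the steadiest ratio of the tested members. On constant hypoxia arrays A and B it read -0.06 and -0.28 at 1 week, -0.14 and -0.58 at 2 weeks, and -0.05 and -0.30 at 4 weeks. On intermittent hypoxia arrays it read -0.10 and -0.54 at 1 week, -0.09 and -0.20 at 2 weeks, and 0.10 and 0.15 at 4 weeks. On normoxia arrays it read 0.20 and -0.08 at 1 week, -0.10 and 0.04 at 2 weeks, and -0.44 and -0.32 at 4 weeks. All 6 constant hypoxia values were negative, but they overlapped those of both other conditions. Its SD over the 18 arrays was 0.22, and 12.5% of tested probes had a smaller one.

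The mean Slc4a1 ratio was -0.23 ± 0.20 in constant hypoxia, -0.11 ± 0.25 in intermittent hypoxia and -0.11 ± 0.23 in normoxia (SD, n = 6 each). Constant hypoxia minus normoxia came to -0.12 ± 0.14 (SE, 95% interval -0.41 to 0.17, limma adjusted p = 0.829). For intermittent hypoxia minus normoxia the 95% interval was -0.29 to 0.29, and intermittent minus constant hypoxia was 0.12 ± 0.14 (SE, limma adjusted p = 0.726). In the probe's place along the array the neighbouring probes ran low on constant hypoxia arrays too. With their running median taken off, constant hypoxia minus normoxia was 0.03 and intermittent minus constant hypoxia -0.12, which turned both signs.

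By duration, the Slc4a1 differences had opposite signs in intermittent hypoxia and normoxia, and neither passed. At 4 weeks minus 1 week it was 0.44 ± 0.23 in intermittent hypoxia (SE, limma adjusted p = 1) and -0.44 ± 0.23 in normoxia (limma adjusted p = 0.646). Both intermittent hypoxia arrays at 4 weeks lay above both at 1 week, and both normoxia arrays at 4 weeks lay below both at 1 week. The difference between those changes was 0.88 ± 0.33, with an unadjusted limma p of 0.018 and an adjusted p of 0.49, and no probe of the 6518 passed that test. In constant hypoxia the 95% interval of 4 weeks minus 1 week was -0.50 to 0.50.

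**Figure D1:**
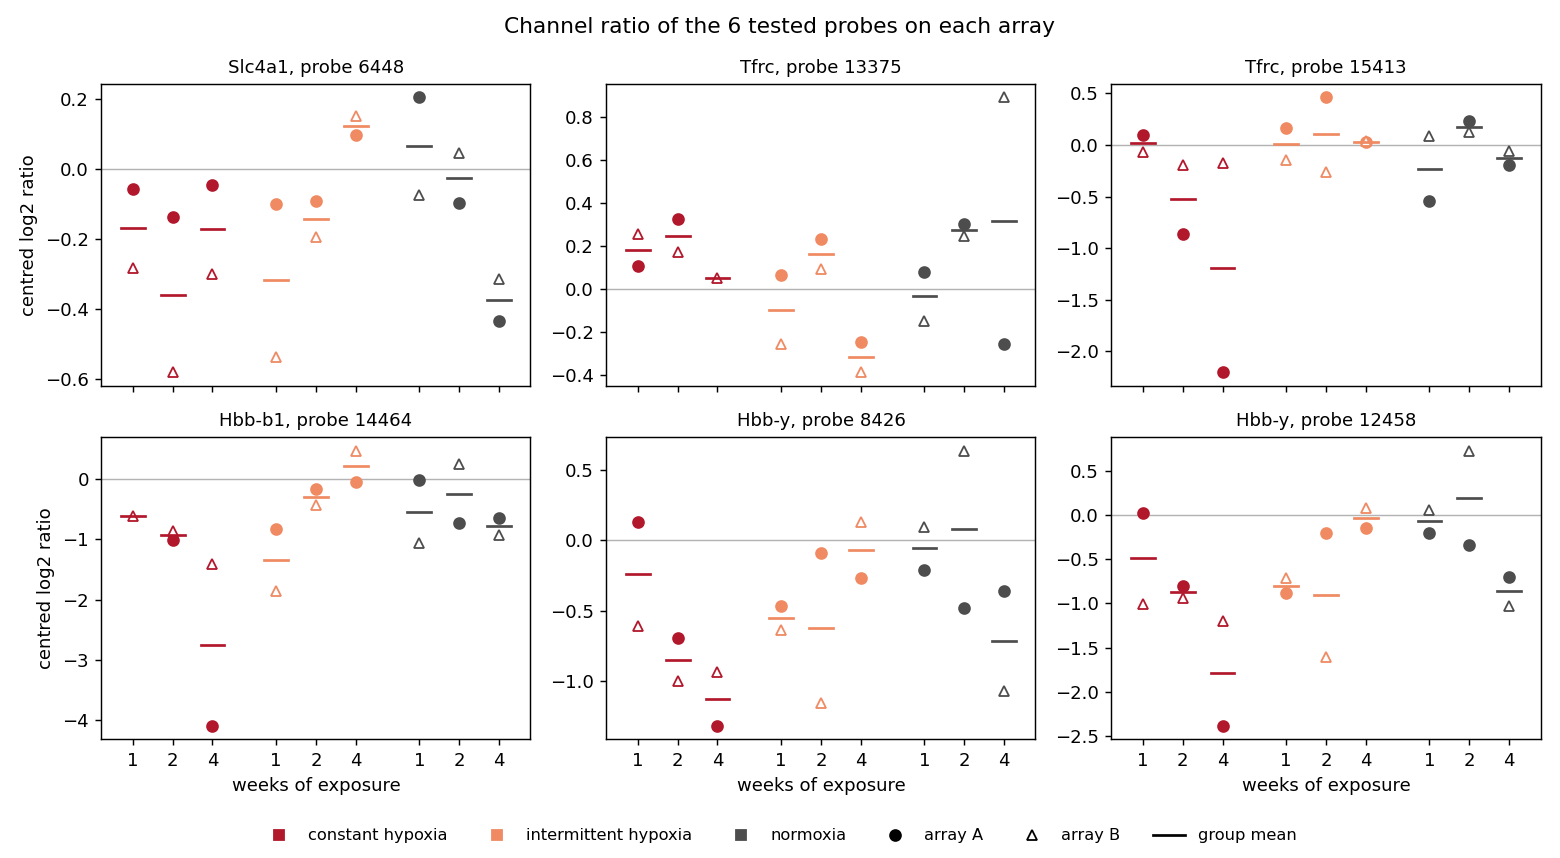
Centred log2 ratio of the 6 tested probes (vertical axis) on each of the 18 arrays, by weeks of exposure (horizontal axis) in constant hypoxia, intermittent hypoxia and normoxia. Filled circles are arrays A, open triangles arrays B and bars group means; Hbb-b1 and Tfrc 13375 lack 1 array each, and constant hypoxia 4 weeks A is the lowest value for Hbb-b1, Tfrc 15413 and both Hbb-y probes.

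Tfrc, the receptor that brings transferrin-bound iron into cells, was represented by 3 probes with different patterns over the arrays. Tfrc 13375 read 0.10 and 0.25 at 1 week, 0.32 and 0.17 at 2 weeks and 0.05 on the single array with a value at 4 weeks of constant hypoxia. It read 0.06 and -0.26, 0.23 and 0.09, and -0.24 and -0.39 at 1, 2 and 4 weeks of intermittent hypoxia. It read 0.08 and -0.15, 0.30 and 0.24, and -0.26 and 0.89 at 1, 2 and 4 weeks of normoxia. The arrays of normoxia at 4 weeks thus lay further apart than any other pair for this probe, and the ranges of the conditions overlapped.

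Tfrc 15413 was close to 0 on most arrays. In constant hypoxia it read 0.10 and -0.06 at 1 week, -0.86 and -0.19 at 2 weeks, and -2.20 and -0.17 at 4 weeks. In intermittent hypoxia it read 0.16 and -0.14, 0.46 and -0.26, and 0.03 and 0.04 at 1, 2 and 4 weeks, and in normoxia -0.55 and 0.09, 0.23 and 0.13, and -0.20 and -0.06. The 2 lowest values both came from arrays A of constant hypoxia. On constant hypoxia 4 weeks A the 200 probes on each side had a running median of -2.10, which leaves -0.10 for Tfrc itself.

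The third probe, Tfrc 6742, had values on 9 arrays and was not tested. It read -0.14, -0.05, 0.40, -0.14, 0.52 and 0.42 over the constant hypoxia arrays in order of duration, -0.32 on 1 intermittent hypoxia array, and 0.07 and -0.11 on 2 normoxia arrays. It was positive on constant hypoxia 4 weeks A, where Tfrc 15413 was at its lowest. Over shared arrays Tfrc 6742 and 15413 had a Pearson r of -0.76 (n = 9), and of -0.26 after the running median of neighbours was removed. For Tfrc 6742 and 13375 r was 0.32 (n = 8), and for Tfrc 13375 and 15413 it was -0.04 (n = 17). These correlations describe arrays that share the drift given above and carry no test.

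Tfrc 13375 differed by -0.02 ± 0.19 in constant hypoxia minus normoxia (SE, 95% interval -0.43 to 0.38) and by -0.27 ± 0.18 in intermittent hypoxia minus normoxia (-0.65 to 0.11). Tfrc 15413 differed by -0.51 ± 0.28 (-1.09 to 0.08) in constant hypoxia minus normoxia and by 0.11 ± 0.28 (-0.48 to 0.70) in intermittent hypoxia minus normoxia. Intermittent minus constant hypoxia was -0.24 ± 0.19 for Tfrc 13375 (limma adjusted p = 0.599) and 0.62 ± 0.28 for Tfrc 15413 (limma adjusted p = 0.418). For Tfrc 15413 with the running median of neighbours removed, the last difference was 0.11 and constant hypoxia minus normoxia was -0.04. Without constant hypoxia 4 weeks A they were 0.28 and -0.17.

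Alas2, the first enzyme of haem synthesis in red cell precursors, had values on 10 arrays and was not tested. It read 0.27 and -1.04 at 1 week, -0.38 and 0.54 at 2 weeks, and 0.85 and 0.06 at 4 weeks of constant hypoxia. It had 1 value of 0.26 in intermittent hypoxia and 3 in normoxia, of -0.24, 0.05 and 0.77. The constant hypoxia values spanned those of both other conditions.

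Hbb-y, the beta-like globin of embryonic red cells, had 4 probes, and all 4 varied together over the arrays. Hbb-y 12458 read 0.02 and -1.0 at 1 week, -0.81 and -0.94 at 2 weeks, and -2.38 and -1.20 at 4 weeks of constant hypoxia. It read -0.89 and -0.71, -0.20 and -1.61, and -0.15 and 0.08 at 1, 2 and 4 weeks of intermittent hypoxia. It read -0.20 and 0.06, -0.34 and 0.73, and -0.70 and -1.03 at 1, 2 and 4 weeks of normoxia. In constant hypoxia 5 of 6 values were negative, as in intermittent hypoxia, against 4 of 6 in normoxia, and the ranges overlapped.

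Hbb-y 8426 traced the same shape with a smaller amplitude. It read 0.13 and -0.61, -0.70 and -1.0, and -1.31 and -0.93 at 1, 2 and 4 weeks of constant hypoxia. It read -0.47 and -0.64, -0.09 and -1.15, and -0.27 and 0.13 at 1, 2 and 4 weeks of intermittent hypoxia, and -0.21 and 0.09, -0.48 and 0.63, and -0.36 and -1.07 in normoxia. Its lowest arrays in the other conditions, intermittent hypoxia 2 weeks B and normoxia 4 weeks B, were also the lowest of those conditions for 12458. The Pearson r between these probes was 0.94 and Spearman's rho 0.94 over 18 arrays, and r was 0.90 within constant hypoxia, 0.96 within intermittent hypoxia and 0.96 within normoxia. The probes lie 4032 probe numbers apart, and r was 0.95 after the running median of each one's neighbours was removed. The numbers of all 4 Hbb-y probes rise in nearly equal steps. Whether the 4 hold different sequences or repeat the same one was not tested, so their agreement is given as a description.

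The untested Hbb-y probes showed a like order where they had values. Hbb-y 361 read 0.17 and -0.33, -1.12 and -0.64, and -1.01 and -0.35 at 1, 2 and 4 weeks of constant hypoxia, and between -0.38 and 0.30 on 4 intermittent hypoxia arrays and between -0.61 and 0.61 on 3 normoxia arrays. Hbb-y 4393 read 0.39 and -0.32, -0.42 and -0.56, and -0.88 and -0.31 in constant hypoxia, and between -0.30 and 0.27 on 3 intermittent hypoxia arrays. On the 6 normoxia arrays it ran from -0.38 to 1.43, with 5 of 6 positive. It had values on 15 arrays but on none at 2 weeks of intermittent hypoxia. The r between 361 and 4393 was 0.90 (n = 12), and each had an r of 0.75 to 0.88 with the tested Hbb-y probes (n = 13 to 15). Whether transcripts of the other beta-like globins, which are alike in sequence, also bind these probes was not tested.

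Hbb-b1, an adult beta globin, had the widest swings of the members. It read -0.60 on the single array with a value at 1 week, -1.01 and -0.86 at 2 weeks, and -4.10 and -1.41 at 4 weeks of constant hypoxia. It read -0.82 and -1.86, -0.17 and -0.43, and -0.05 and 0.48 at 1, 2 and 4 weeks of intermittent hypoxia. It read -0.02 and -1.06, -0.73 and 0.25, and -0.64 and -0.92 at 1, 2 and 4 weeks of normoxia. Of its 17 values 15 were negative, and its SD of 1.03 exceeded that of 99.8% of tested probes. On constant hypoxia 4 weeks A the neighbours' running median was -2.25, and Hbb-b1 stood at -1.85 after its removal.

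Hba-x, the alpha-like globin of embryonic red cells, had values on 9 arrays and was not tested. In constant hypoxia it read -0.02 and -0.67, -1.04 and -0.10, and -1.90 and -0.44 at 1, 2 and 4 weeks. In intermittent hypoxia it read 0.29 and -0.23 on 2 arrays, and in normoxia 0.72 on 1. All 6 constant hypoxia values were negative. The probe's mean over these arrays was -0.69, and -0.04 after the running median of neighbours was removed. On constant hypoxia 4 weeks A its neighbours had a running median of -2.24, and the probe stood at 0.34 after its removal.

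Between conditions and with the orientation as deposited, the mean centred globin ratios were lower in constant hypoxia than in normoxia, but no difference passed. Hbb-y 12458 averaged -1.05 ± 0.78 in constant hypoxia, -0.58 ± 0.62 in intermittent hypoxia and -0.25 ± 0.61 in normoxia (SD, n = 6 each). Constant hypoxia minus normoxia was -0.81 ± 0.28 for this probe (SE, 95% interval -1.40 to -0.21). It was -0.50 ± 0.24 for Hbb-y 8426 (-1.01 to 0.00) and -0.91 ± 0.41 for Hbb-b1 (-1.79 to -0.03). The limma adjusted p-value was 0.619 for each. Across all probes 0% passed in this comparison, and 7.95% had an unadjusted p under 0.05, as did 2 of the 6 tested members.

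The size of these differences rested in part on constant hypoxia 4 weeks A. Without that array they were -0.61 for Hbb-y 12458, -0.44 for Hbb-y 8426 and -0.46 for Hbb-b1. With the running median of neighbours removed they were -0.49, -0.35 and -0.20. Without constant hypoxia 4 weeks B, where array A alone stands for that group, 692 probes passed, among them Hbb-y 12458 at -1.0, Hbb-b1 at -1.36 and Tfrc 15413 at -0.84.

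**Figure D2:**
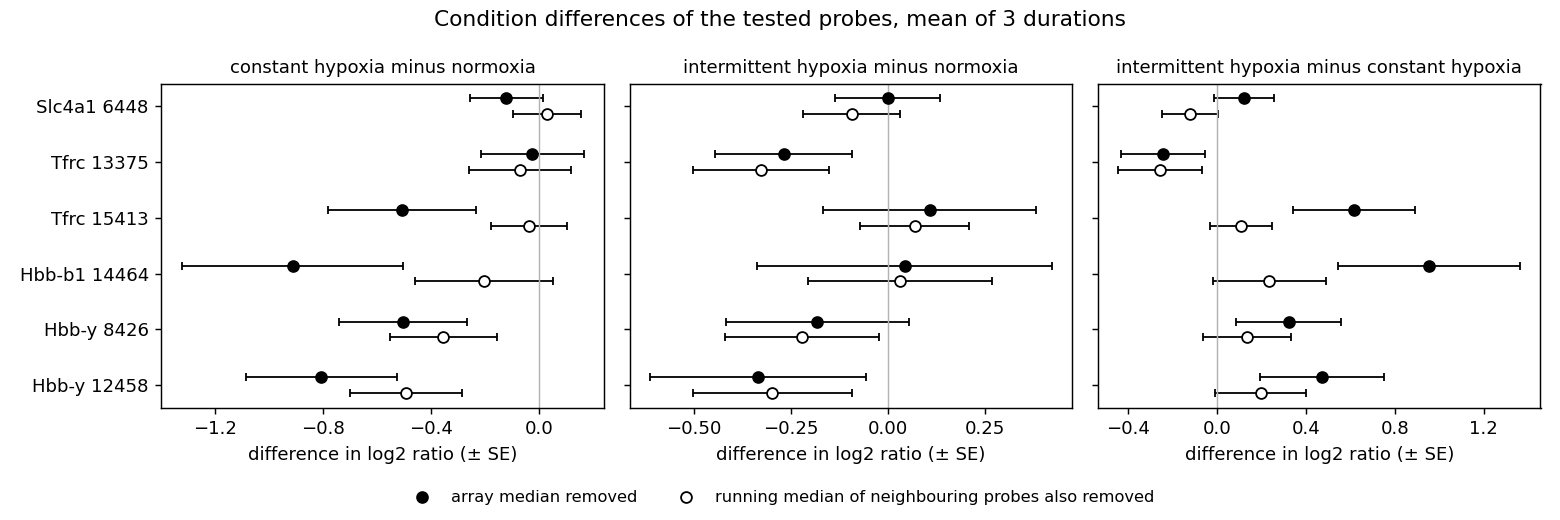
Differences in centred log2 ratio between conditions (horizontal axis, limma estimate ± SE over the 3 durations) for the 6 tested probes, before (filled) and after (open) removal of the running median of neighbouring probes. For Tfrc 15413 constant hypoxia minus normoxia moves to -0.04 after removal, against -0.51 before, and for Hbb-y 12458 to -0.49, against -0.81.

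Intermittent hypoxia minus normoxia gave smaller globin differences. They were -0.33 ± 0.28 for Hbb-y 12458 (SE, 95% interval -0.93 to 0.26), -0.18 ± 0.24 for Hbb-y 8426 (-0.69 to 0.32) and 0.04 ± 0.38 for Hbb-b1 (-0.77 to 0.86). The limma adjusted p-value was 0.996 for each, and 0% of all probes passed, with 4.27% at an unadjusted p under 0.05. None of the 6 tested members had such a p.

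Intermittent minus constant hypoxia was positive for all 3 globin probes. It was 0.96 ± 0.41 for Hbb-b1 (SE, 95% interval 0.08 to 1.84, limma adjusted p = 0.407), 0.47 ± 0.28 for Hbb-y 12458 (adjusted p = 0.493) and 0.32 ± 0.24 for Hbb-y 8426 (adjusted p = 0.575). Here 3 probes, 0.046% of those tested, passed, and none was a member. They were Arrb2, Zfp110 and a probe without a symbol. At an unadjusted p under 0.05 stood 11.7% of all probes and 2 of the 6 members, Hbb-b1 and Tfrc 15413. Without constant hypoxia 4 weeks B 784 probes passed, among them Hbb-b1 at 1.40 and Tfrc 15413 at 0.95. Without constant hypoxia 4 weeks A the differences were 0.51 for Hbb-b1, 0.28 for Hbb-y 12458 and 0.26 for Hbb-y 8426. With the running median of neighbours removed they were 0.24, 0.20 and 0.13. This comparison shares the constant hypoxia arrays with the first, so it is not separate evidence.

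With duration, the globin differences were negative in constant hypoxia and positive in intermittent hypoxia, again with none passing. In constant hypoxia 4 weeks minus 1 week was -1.30 ± 0.48 for Hbb-y 12458 (SE, limma adjusted p = 0.419), -0.88 ± 0.41 for Hbb-y 8426 (adjusted p = 0.48) and -2.15 ± 0.81 for Hbb-b1 (adjusted p = 0.42). In intermittent hypoxia it was 0.76 ± 0.48, 0.48 ± 0.41 and 1.56 ± 0.66 for the same 3 probes, each with an adjusted p of 1. In normoxia it was -0.79 ± 0.48, -0.66 ± 0.41 and -0.24 ± 0.66, with adjusted p-values of 0.704 to 0.967. For Tfrc 15413 in constant hypoxia it was -1.21 ± 0.48 (adjusted p = 0.426), and -0.19 without constant hypoxia 4 weeks A. Without that array the globin values in constant hypoxia were -0.71, -0.70 and -0.81. Without constant hypoxia 4 weeks B, which leaves array A alone in its group, 876 probes passed, among them Hbb-y 12458 at -1.90, Hbb-b1 at -3.50 and Tfrc 15413 at -2.22.

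The arrays at 4 weeks did not overlap those at 1 week for 5 of the 6 tested members in constant hypoxia, against 43.8% of all tested probes. The counts were 4 of 6 in intermittent hypoxia, against 42.7%, and 3 of 6 in normoxia, against 45.6%. With 2 arrays or fewer on each side such separation is common. No probe passed the test in these 3 comparisons (0% each), and an unadjusted p under 0.05 was found for 10.2%, 2.72% and 8.59% of probes and for 4, 1 and 0 of the 6 members. The test of whether the change from 1 to 4 weeks differed between intermittent hypoxia and normoxia gave 1.56 ± 0.68 for Hbb-y 12458 and 1.14 ± 0.58 for Hbb-y 8426 (SE, limma adjusted p = 0.563 and 0.609). Between constant hypoxia and normoxia it gave -0.51 ± 0.68 and -0.23 ± 0.58 (adjusted p = 0.999 for both), and 0.09 and -0.04 without constant hypoxia 4 weeks A. Between intermittent and constant hypoxia, a contrast added after the data were seen, it gave 3.71 ± 1.04 for Hbb-b1, 2.06 ± 0.68 for Hbb-y 12458 and 1.37 ± 0.58 for Hbb-y 8426 (SE, limma adjusted p = 0.507 for each). Without constant hypoxia 4 weeks A these were 2.36, 1.47 and 1.18 (limma adjusted p = 0.888 for each). No probe of the 6518 passed any of these tests. None of the tests of a difference between changes was among the comparisons planned at the start. For Hbb-b1 the difference between intermittent hypoxia and normoxia was 1.80, and that between constant hypoxia and normoxia -1.91. Each Hbb-b1 estimate that involves constant hypoxia rests on 1 array at 1 week.

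**Figure D3:**
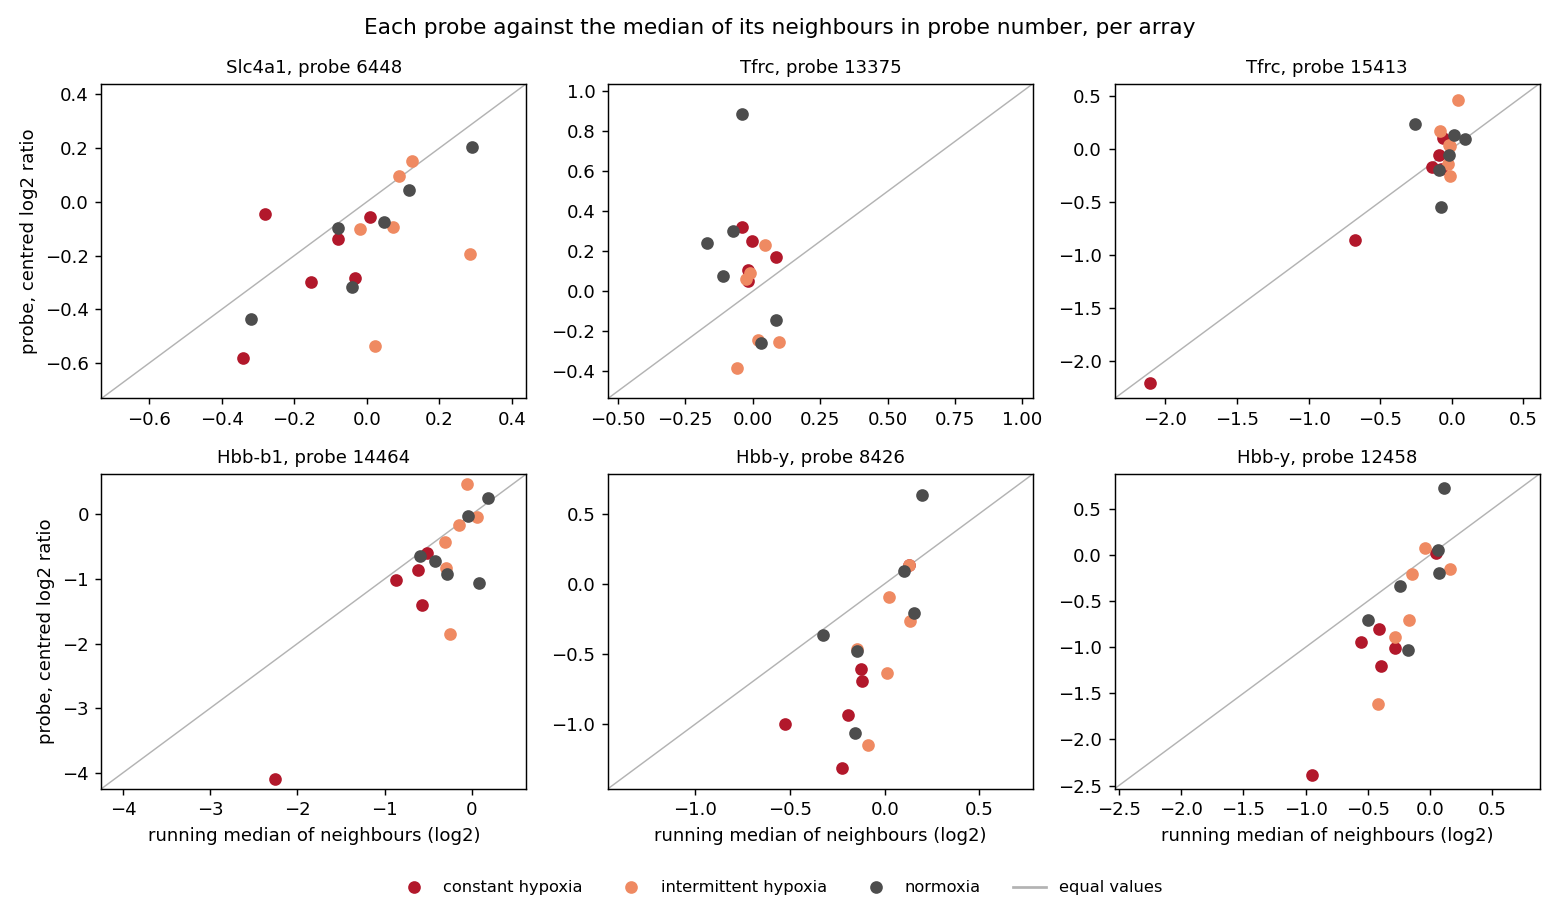
Centred log2 ratio of each tested probe (vertical axis) against the running median of its neighbours (horizontal axis). Neighbours are the 200 probes with a value, tested or not, on each side in probe number. Each point is 1 array, coloured by condition, and the line marks equal values. The constant hypoxia 4 weeks A point of Tfrc 15413 lies on the line near -2.1, and both Hbb-y probes lie mostly below it.

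The spread of each member shows how much of its movement it shared with its neighbours. The SD over arrays of Tfrc 15413 was 0.58 and exceeded that of 91.7% of tested probes, but 0.23 after removal of the running median, above 26.2%. That of Hbb-b1 was 0.63 after removal, still above 99.0% of probes, and those of Hbb-y 12458 and 8426 were 0.49 and 0.41, above 95.4% and 87.2%. The SD of Slc4a1 was 0.22 before removal and 0.18 after it. That of Tfrc 13375 went the other way, from 0.30, above 43.0% of probes, to 0.33, above 70.5%. Hbb-b1 had an r of 0.76 with Hbb-y 12458 (n = 17), 0.56 without constant hypoxia 4 weeks A and 0.53 after removal of the running median. Tfrc 15413 had an r of 0.77 with Hbb-b1 (n = 17), but 0.22 without that array and 0.10 after removal.

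The main adult alpha globins, Hba-a1 and Hba-a2, had no probe annotated to either one alone. The array held 16 probes annotated jointly to both and to the histone gene H3f3a, and 2 annotated jointly to Hbb-b1 and Hbb-b2, which are not members. The joint alpha probes had 39 of 96 possible values on constant hypoxia arrays, against 84 of 96 on intermittent hypoxia arrays and 79 of 96 on normoxia arrays. The joint beta probes had 2, 12 and 12 of 12 in the same order. All probes of the array, by contrast, had values most often in constant hypoxia, at 85.8%, against 55.0% in intermittent hypoxia and 58.4% in normoxia.

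Per array the joint alpha probes with a value numbered 6.50 ± 3.94 of 16 in constant hypoxia, 14 ± 1.79 in intermittent hypoxia and 13.2 ± 2.04 in normoxia (SD, n = 6 each). A two-sided exact permutation test over arrays, chosen after the data were seen, gave p = 0.0065 for constant hypoxia minus normoxia, 0.545 for intermittent hypoxia minus normoxia and 0.0043 for intermittent minus constant hypoxia (0.0097, 0.545 and 0.0097 adjusted over the 3). The smallest p this design allows is 0.0022. As the test was chosen with the data in view, its p-values are descriptions and do not measure chance. The median ratio of these probes per array ran from -1.06 to 0.22 in constant hypoxia, from -0.65 to 0.18 in intermittent hypoxia and from -0.46 to 0.78 in normoxia. These ranges overlapped. The -1.06, on constant hypoxia 1 week B, is a median of 3 probes, and constant hypoxia 4 weeks A had 1 probe with a value. Arrays of the other conditions had at least 11. The r of this median with Hbb-y 12458 was 0.26 over 18 arrays and with Hbb-b1 0.05 over 17. Both weigh all arrays equally and are given as descriptions. The constant hypoxia arrays also differ in the footing described above, from which the count cannot be told apart.

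**Figure D4:**
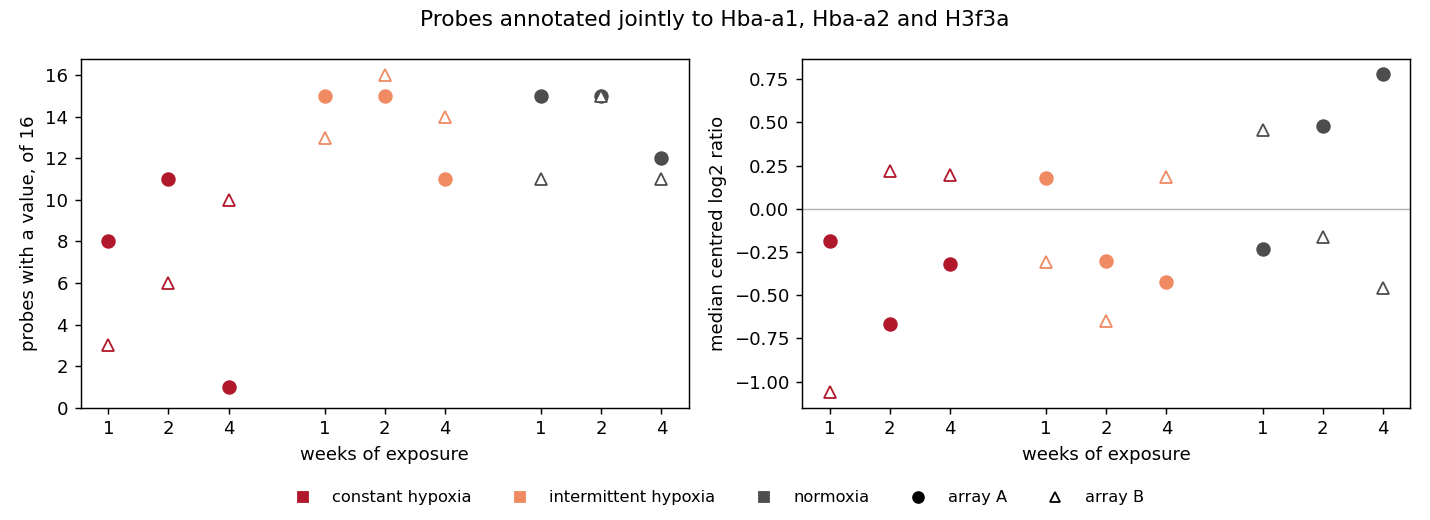
Left, number of the 16 probes annotated jointly to Hba-a1, Hba-a2 and H3f3a that had a value on each array (vertical axis), and right, their median centred log2 ratio, both by weeks of exposure (horizontal axis) and condition. The constant hypoxia arrays held between 1 and 11 of these probes, the intermittent hypoxia arrays between 11 and 16 and the normoxia arrays between 11 and 15.

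Among tested probes with a single symbol, the 3 most like each tested member over arrays made 18 probes. Of these, 8 lay within 152 probe numbers of the member and 10 lay 992 to 10519 numbers away. Tfrc 15413 was most like Mrpl50, Jpt1 and Ezh2 (Pearson r = 0.97 each over 18 arrays), which lie 99, 152 and 141 numbers away. Hbb-y 12458 was most like Dnaja2, Atp5j2 and Wdr7 (r = 0.96, 0.95 and 0.95), of which Atp5j2 lies 2 numbers away. Hbb-y 8426 was most like Prdm15 and Zfp113 (r = 0.954 and 0.94), and after them Hbb-y 12458 (r = 0.936), 1 of 4875 candidates. After removal of the running median these r values were 0.9, 0.907 and 0.946. The probe most opposite to both Hbb-y probes was Prr15l (r = -0.89 for each, n = 17). Hbb-b1 was most like Hspa12a, Cand1 and Slc8a1 (r = 0.90 to 0.91, n = 15 to 17). Slc4a1 was most like Fbxo21, Dstn and Mthfd1 (r = 0.82 to 0.87, n = 18), and Tfrc 13375 like Crot, Galnt3 and Dnajc2 (r = 0.72 to 0.74, n = 15 to 17).

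Other genes of the same pathway were read from fixed lists, and no probe of any list passed in any of the 6 comparisons. Red cell membrane genes had 2 tested probes, Slc4a1 and Ermap, an erythroid membrane protein, and their median constant hypoxia minus normoxia difference was -0.18, against -0.04 over all tested probes. For haem synthesis 7 tested probes had a median of -0.07, with 1 of 7 positive. Alas1, the version of the first haem enzyme used in most tissues, had the lowest value at -0.69 ± 0.39 (SE, limma adjusted p = 0.649). Alad, which acts after it, was at -0.24 ± 0.27. The Alas1 and Alad probes, 14958 and 15175, lie between Hbb-b1 14464 and Tfrc 15413 in probe number. The neighbours of those members had running medians of -2.252 and -2.105 on constant hypoxia 4 weeks A. The Alas1 and Alad values are given without removal of that drift, and its part in them was not tested. Of the erythroid transcription factors and erythropoietin signalling genes only Jak2, the kinase of the erythropoietin receptor, and Gata1, the master factor of red cell genes, were tested. Jak2 stood at -0.50 ± 0.15 (limma adjusted p = 0.619) and Gata1 at -0.27 ± 0.20. Their probes, 8281 and 12219, lie nearest to Hbb-y 8426 and 12458 among the members. On constant hypoxia 4 weeks A the neighbours of those members had running medians of -0.226 and -0.949. The Jak2 and Gata1 values are also given without removal of the drift, and its part in them was not tested.

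The iron list had 13 tested probes of 10 genes, 6 of them positive in constant hypoxia minus normoxia, with a median of -0.02 and values from -0.55 to 0.45. The highest was a probe of Lrp2, the proximal tubule receptor megalin, at 0.45 ± 0.15 (SE, limma adjusted p = 0.619). The other tested Lrp2 probe was at 0.09 ± 0.15. Pcbp2, which delivers iron inside cells, was at 0.37 ± 0.17. In intermittent hypoxia minus normoxia the list's median was 0.07, against 0.02 over all probes. Red cell enzymes had 7 tested probes with a median of 0.10 in constant hypoxia minus normoxia. They ran from -0.28 for a probe of Bpgm, the enzyme that makes the oxygen-releasing bisphosphoglycerate, to 0.54 for Gpx1, a peroxidase. The other tested Bpgm probe had the opposite sign, at 0.11 ± 0.13 (SE).

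Few markers of other cells were tested. The only tested intercalated cell probe, Atp6v0a4, a proton pump subunit, was at 0.28 ± 0.21 in constant hypoxia minus normoxia (SE, limma adjusted p = 0.722). The only other tested exchanger of the SLC4 family, Slc4a2, was at -0.23 ± 0.26. Its probe, 15220, lies in the same drifting stretch as those of Alas1 and Alad, and its value is likewise given without removal of the drift. In the same comparison the medians were 0.07 for 2 leukocyte and platelet probes, -0.01 for 5 endothelial probes and -0.01 for 11 proliferation probes. Intermittent hypoxia minus normoxia gave 0.01, 0.09 and 0.10 for those lists. Birc5, a survival factor of dividing cells, had the smallest unadjusted p of its list there, at 0.53 ± 0.17 (SE, limma adjusted p = 0.996). The part of these cells in the members' ratios was not tested.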

How the data were processed

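For each of 18 arrays of 2 colours the authors deposited a log2 ratio per probe. Not given in the sources used here are the numerator, the background correction, the spot filters and the normalization. The base was inferred: with base 2, between 23.6% and 78.2% of the values sampled on an array were ratios of whole numbers (denominators up to 600, relative tolerance 3e-09), and with bases e and 10 at most 1.0%. Arrays were grouped by title. Other labels contradict the title on 2 arrays, intermittent hypoxia 2 weeks A (where 1 week is named for the female) and constant hypoxia 4 weeks A (where the second channel's treatment is given as 2 weeks).

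Symbols came from the platform annotation: 9604 probes had 1 symbol, 213 several and 6311 none, and 9496 of the first were matched to RefSeq by gene ID. A probe was tested with a value on at least 15 of 18 arrays and in every group. Centring subtracted the array's median over the 6518 tested probes. The fit used limma 3.58.1 under R 4.3.3 (9 group means, durations weighted equally, eBayes) and p-values adjusted by Benjamini-Hochberg over all 6518 probes. Where an array lacks a value its group mean rests on the other array. The fit was tested on simulated data. Running medians took the 200 probes with a value on that array, tested or not, on each side. Exact permutation tests used scipy 1.17.1. Depth is not defined for arrays, and 2 arrays a group limit the precision. All member probes are named, and of other genes up to 3 per list by smallest p and the 3 most alike per tested member. The members and lists were chosen with earlier results of these data known. Same-letter arrays of different groups had correlations of their residuals of -0.39 to 0.47 (10 of 36 over 0.1). With orientation untested, these cannot settle whether the letters pair arrays, and the main fit did not use the letters. Alternatives were other centring and scaling, the running median, other filters, averaged probes, a letter block, eBayes options and leaving out arrays.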

Additional observations from a re-analysis of the deposited data

Results flagged for a closer look

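Of 25 sets of arrays examined, each a member probe in 1 condition with at least 4 values, 1 held an array far from the others; chance alone gives about 1 in 20. It was Hbb-b1 probe 14464 on constant hypoxia 4 weeks A, at -4.099, with the nearest of the other 4 constant hypoxia values at -1.41. The gap took 0.77 of the whole range, against a critical value of 0.71 for 5 values. After removal of the running median of neighbouring probes this value was -1.85. In limma's interaction tests of the change from 1 to 4 weeks, run for all 3 pairs of conditions, no member passed at the adjusted threshold.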

How the results depend on the processing

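No member passed under the main setting, and over the alternatives members passed only on the values as deposited and without constant hypoxia 4 weeks B. Of 984 member values over the alternatives, 32 had the opposite sign, 11 of them where the value or its main counterpart was under 0.005 in size and so is taken as having no direction. Slc4a1 was such a case: in 4 weeks minus 1 week of constant hypoxia it ranged from -0.130 to 0.122 on leaving out 1 array and was 0.204 with the running median removed, and in intermittent hypoxia minus normoxia it ranged from -0.073 to 0.074. The number of probes passing was 0 of 6518 in 5 comparisons and 3 in intermittent minus constant hypoxia. On the values as deposited it was 6251 in constant hypoxia minus normoxia, 6041 in intermittent minus constant hypoxia and 1 in 4 weeks minus 1 week in constant hypoxia. All 6 members passed in the first and in the second, where Tfrc 13375 turned to 0.47; these values carry the array medians given in the report. In intermittent minus constant hypoxia the count was 0 with the median over all probes, with a value on all 18 arrays and with the replicate block by letter, 1 with arrays scaled to one median absolute deviation and 6 with the running median removed. Leaving out both wide arrays (intermittent hypoxia 2 weeks B with constant hypoxia 4 weeks A), chosen after seeing the data, gave 1 in constant hypoxia minus normoxia, 6 in intermittent minus constant hypoxia and 6 in 4 weeks minus 1 week in normoxia. The replicate block changed no member call. The deviations of same-letter arrays had a median r of 0.004 over 36 pairs, from -0.39 to 0.47.

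Leaving out 1 array at a time gave 0 to 692 passing probes in constant hypoxia minus normoxia, 0 to 1 in intermittent hypoxia minus normoxia and 0 to 784 in intermittent minus constant hypoxia. It gave 0 to 876 for 4 weeks minus 1 week in constant hypoxia, 0 to 1 in intermittent hypoxia and 0 to 1 in normoxia. The highest counts came without constant hypoxia 4 weeks B, where array A is alone in its group and is taken to vary like the other groups. Member differences that changed sign on leaving out 1 array ranged, in constant hypoxia minus normoxia, from -0.216 to 0.167 for Tfrc 13375. In intermittent hypoxia minus normoxia they ranged from -0.363 to 0.005 for Hbb-y 8426, -0.128 to 0.218 for Hbb-b1 and -0.017 to 0.230 for Tfrc 15413. For 4 weeks minus 1 week they ranged from -0.130 to 0.173 for Tfrc 15413 in intermittent hypoxia, and in normoxia from -0.223 to 0.919 for Tfrc 13375, -0.768 to 0.278 for Hbb-b1 and -0.215 to 0.412 for Tfrc 15413.

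With the running median removed, the sign turned for Slc4a1 (0.028 in constant hypoxia minus normoxia, -0.12 in intermittent minus constant hypoxia), Tfrc 15413 (-0.019 in 4 weeks minus 1 week of intermittent hypoxia) and Hbb-b1 (0.22 in 4 weeks minus 1 week of normoxia). With scaled arrays Tfrc 13375 turned to 0.017 in constant hypoxia minus normoxia. With the Tfrc probes averaged the gene stood at -0.08 in intermittent hypoxia minus normoxia, 0.37 in intermittent minus constant hypoxia and -0.099 in 4 weeks minus 1 week of intermittent hypoxia, each opposite to 1 of its probes. For these the cause was not tested.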

Other observations

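The 5 member probes that could not be tested had values on 30 of 30 possible places in constant hypoxia, against 11 of 30 in intermittent hypoxia and 15 of 30 in normoxia. All probes of the array ran in the same order, at 85.8%, 55.0% and 58.4%. The 5 were set apart by lacking values, so their counts are a description. Hbb-y 4393 had values on all 6 normoxia arrays and was left out through intermittent hypoxia alone, where it had 3.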
